A study of Rattus norvegicus with 10 samples.

Results

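Cells labelled A7r5, a line from embryonic rat aorta that the labels describe as vascular smooth muscle, carried a human BMPR2 construct or an empty vector, and the question was what any such construct changed. Of 10 arrays, 8 entered the comparison, 2 for each of 4 groups. The groups were empty vector, wild-type human BMPR2, BMPR2 with 2579-2580delT in the cytoplasmic tail (the CD mutant), and BMPR2 with T354G in the extracellular domain (the ED mutant). All were normoxic, about 50% confluent and grown in DMEM with 10% serum, and the constructs were stably transfected. For the 2 control arrays the labels conflict: the description and the transfection label give a stable empty vector, while the title and source call the cells native. They are called empty vector here, and if they were untransfected, transfection and selection cannot be told apart from BMPR2 in every pooled result. The 6 construct arrays were pooled as the mean of 3 groups with equal weight and set against the 2 empty vector arrays. The 2 arrays with the C994T kinase domain mutant (KD) were left out by this rule. The labels give neither the number of clones behind a construct nor the source of the second array of a group, so p-values measure the spread between arrays, which may be technical. A clone that differed for another reason than its construct cannot be told apart from the construct, and the cells keep their own rat Bmpr2.

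BMPR2 is the type II receptor that, once a bone morphogenetic protein (BMP) is bound, phosphorylates a type I receptor. That receptor then phosphorylates SMAD1, SMAD5 and SMAD9, which enter the nucleus with SMAD4 and switch on targets such as the Id genes, inhibitors of basic helix-loop-helix factors. Its long cytoplasmic tail also binds kinases and cytoskeletal proteins. Loss-of-function mutations of the human gene underlie much heritable pulmonary arterial hypertension, in which smooth muscle of the small lung arteries thickens.

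The values are log2 summaries of probe sets made with RMA, a method that subtracts background, equalises arrays and combines the probes of a set. A probe set was tested where 2 or more of the 8 arrays reached log2 4.90, the 40th percentile, which 19534 did. Correlations between arrays were 0.993 to 0.995 within groups and 0.989 to 0.995 between groups. The label of smooth muscle had mixed support from its markers: 5 of 8 reached the filter level, with Smtn at 10.41 and Myh11 at 6.79, but Tagln read 4.98, Cnn1 4.39 and Myocd 4.26. Of 8 epithelial markers 6 did so, with the keratin gene Krt18 at 11.47 and Cdh1, which encodes E-cadherin, at 9.71, while Epcam read 3.78. Endothelial markers reached that level in 0 of 4. Leukocyte markers did so in 3 of 5, with Cd68 at 5.96, Cd14 at 5.80 and Itgam at 5.25. Ptprc, the pan-leukocyte gene, read 3.40 and Csf1r 4.43. Fibroblast markers reached it in 4 of 8, and skeletal muscle markers in 3 of 5, with Myh1 at 9.04 but Tnnt3 at 4.23. The cells are therefore named only by their label.

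The pooled comparison called a small set of probe sets, and most changes were modest. At an adjusted p under 0.05 in limma, 106 of 19534 probe sets differed (0.543%), 59 higher (0.302%) and 47 lower (0.241%) with a construct. Counted at the brightest probe set of each of 10904 genes, with p still adjusted over all probe sets, 79 were called (0.725%), 45 higher (0.413%) and 34 lower (0.312%). The 106 named 52 genes higher and 41 lower, and 7 and 5 further probe sets had no single gene. An unadjusted p under 0.05 was reached by 2703, where 977 would be 5% of those tested. The construct arrays lay wholly outside the empty vector pair for 104 of the 106, against 6.52% of all tested probe sets on the higher side and 7.83% on the lower. Just 4 genes passed 2-fold: Ccl2 fell, and Slc5a11, Acta1 and Fgb rose. A further 70 called probe sets differed by less than 1.5-fold. Single arrays weighed heavily: apart from Ccl2 and Acta1, each of the 106 calls was lost without at least 1 of the 8 arrays, and without empty vector replicate 1 just Ccl2, Acta1 and Mt2A were called. The call threshold passed between Tardbp (adjusted p = 0.0499) and Clu (adjusted p = 0.0511).

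**Figure D1:**
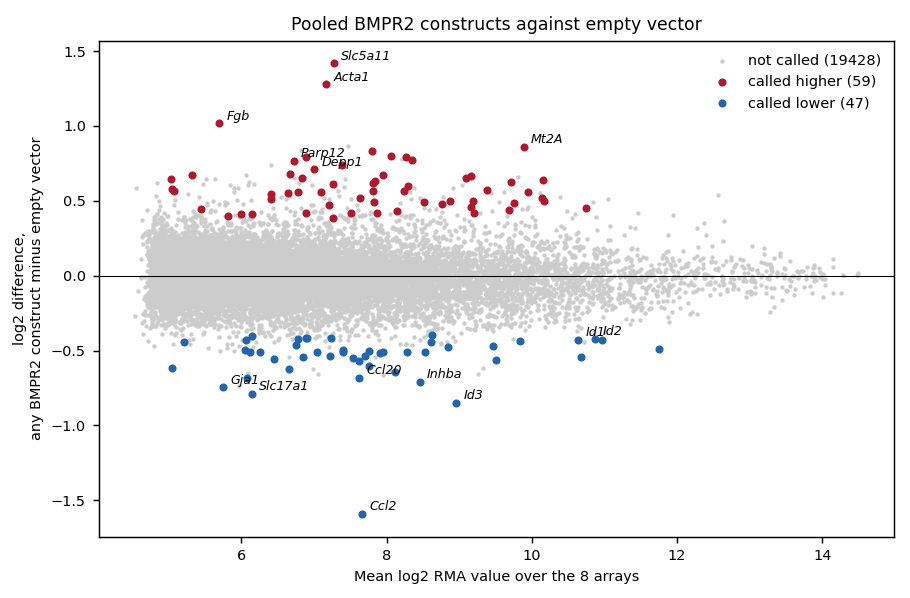
Each point is 1 of 19534 tested probe sets, with its mean log2 RMA value over the 8 arrays on the x axis and the log2 difference of the pooled BMPR2 constructs from empty vector on the y axis; red and blue points are the 59 called higher and 47 called lower. Ccl2 stands apart at the bottom and Slc5a11, Acta1 and Fgb at the top, while most called points lie within 1 log2 unit of 0.

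The receptor itself was read first. Rat Bmpr2 has a pair of tested probe sets, and whether they bind the human transcript was not tested, so they do not check the transgene. By the brighter one, Bmpr2 read 6.66 and 6.70 with empty vector, 7.22 and 6.95 with wild-type BMPR2, 7.21 and 6.85 with the CD mutant, and 7.0 and 6.79 with the ED mutant. All 6 construct arrays lay above the empty vector pair, by 0.32 on average (SE 0.113, adjusted p = 0.232 in limma). The dimmer probe set differed by 0.12 with overlapping arrays (adjusted p = 0.591). Neither passed the test.

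Of the other BMP pathway genes, the signalling machinery gave few calls. Among 12 tested receptors and co-receptors of the BMP and TGF-beta family, 0 rose and 0 fell in limma (2 and 2 at an unadjusted p under 0.05). Their median difference was -0.044, against -0.009 over all 10904 tested genes. Of those 10904, at 1 probe set per gene, 689 were higher and 926 lower at an unadjusted p under 0.05, the background for such counts in every list. For calls in a list the background was 45 higher (0.413%) and 34 lower (0.312%). Bmpr1a, a type I BMP receptor, differed by 0.03, and Acvr1, another, by -0.25 (adjusted p = 0.288). Of 16 Smads and Smad partners 0 passed (4 had an unadjusted p under 0.05), and Smad1, Smad5 and Smad4 differed by -0.09, 0.10 and 0.11. Partners of the BMPR2 tail and non-Smad kinases gave 0 calls among 17 (4 at an unadjusted p under 0.05), and the kinase gene Pak1 stood at 0.29 (adjusted p = 0.159). Antagonists gave 0 of 8 (1 at an unadjusted p under 0.05), Fst, the activin-binding follistatin, being nearest at -0.23 (adjusted p = 0.345). For the receptor, Smad and tail lists, 1, 1 and 1 members had construct arrays all higher and 1, 3 and 2 all lower, where 6.61% and 9.31% of all genes did.

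Among ligands of the family 1 of 13 changed. Inhba read 8.97 and 9.0 with empty vector, 8.35 and 8.10 with wild-type BMPR2, 8.29 and 8.26 with the CD mutant, and 8.47 and 8.19 with the ED mutant. All construct arrays of Inhba, which encodes the activin A subunit, were below both empty vector arrays. It fell by 0.71 (SE 0.0953, 1.63-fold, adjusted p = 0.0186), and its dimmer probe set differed by -0.23 without passing (adjusted p = 0.371). Gdf15, a stress-induced ligand, stood at -0.26 (adjusted p = 0.128) and Tgfb2 at -0.29 (adjusted p = 0.268).

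Of the 4 Id genes, the standard transcriptional readout of BMP signalling, 3 fell with the constructs. Id3 read 9.74 and 9.45 with empty vector, 8.93 and 8.62 with wild-type BMPR2, 8.80 and 8.77 with the CD mutant, and 8.70 and 8.65 with the ED mutant. The construct arrays of Id3 did not reach the lower empty vector array, and the 3 constructs lay close together, at -0.82, -0.81 and -0.92 from empty vector (F-test among them, adjusted p = 0.874). In bulk RNA, fewer cells that express a gene and less RNA of it per cell cannot be told apart. Pooled, Id3 fell by 0.85, with a 95% interval of -1.08 to -0.62, or 1.8-fold (SE 0.103, adjusted p = 0.0112). Id1 read 10.97 and 10.94 with empty vector, 10.61 and 10.41 with wild-type BMPR2, 10.46 and 10.42 with the CD mutant, and 10.64 and 10.63 with the ED mutant. Id2 read 11.22 and 11.15 with empty vector, 10.85 and 10.72 with wild-type BMPR2, 10.42 and 10.49 with the CD mutant, and 11.09 and 11.02 with the ED mutant. Both genes had construct arrays below empty vector without overlap, and the ED mutant arrays of Id2 came closest to empty vector. Id1 fell by 0.43 (adjusted p = 0.0473) and Id2 by 0.42 (adjusted p = 0.0449), near the threshold.

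The list of 15 tested BMP targets held no call beyond those 3. The list's median was 0.008, and 3 fell and 0 rose, where 0.312% and 0.413% of all tested genes were called lower and higher. Of the list, 5 had construct arrays all lower and 1 all higher, against 9.31% and 6.61% of genes. Junb, an AP-1 subunit, stood at -0.24 (adjusted p = 0.194) and Smad6, an inhibitory Smad, at -0.17 (adjusted p = 0.349). Id4 differed by 0.08, Smad7 by 0.08 and Hes1 by 0.01, all with overlapping arrays. Without empty vector replicate 1 the adjusted p was 0.239 for Id3, and Id1 and Id2 lost their calls whichever array was left out.

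**Figure D2:**
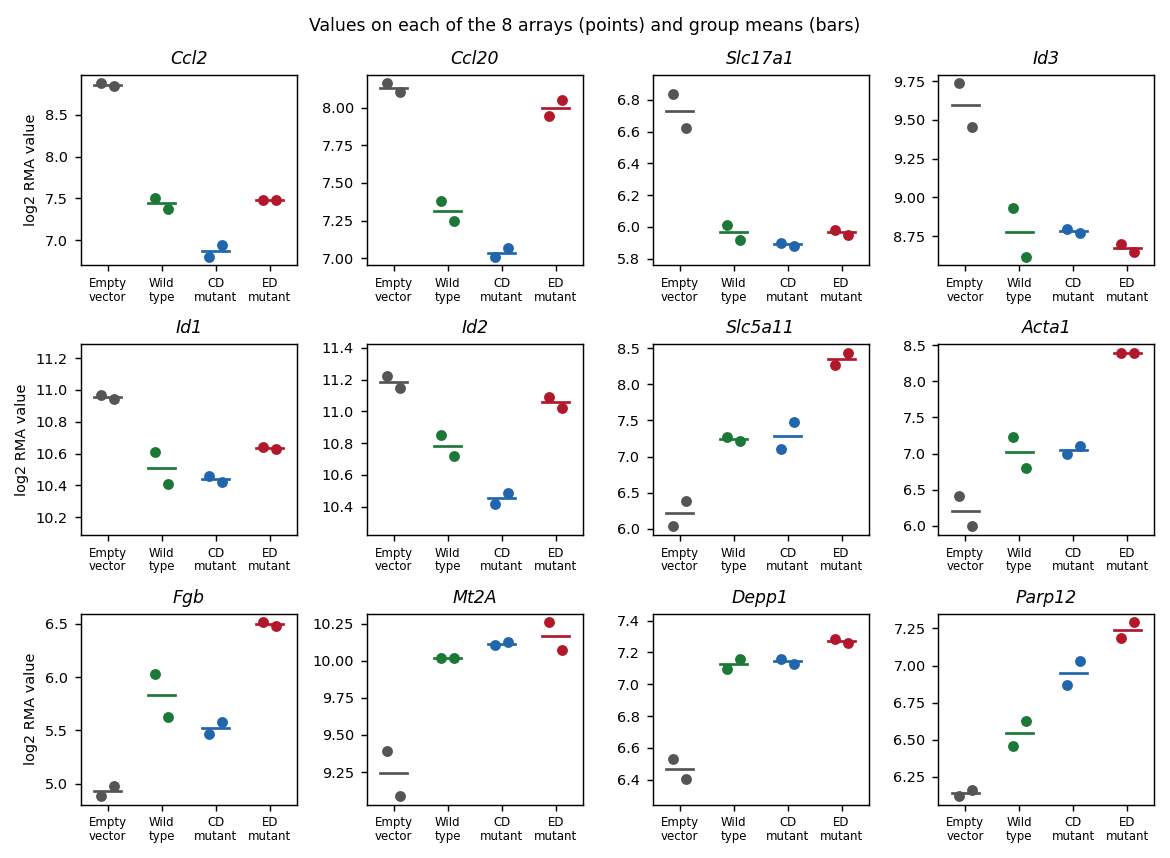
Log2 RMA values of 12 genes on each of the 8 arrays (points, 2 per group) with group means (bars); each panel has its own y axis. The empty vector arrays lie outside all 6 construct arrays in each panel. Apart from Id1 and Id2, the genes were named by a rule that required this. Of all tested probe sets, 6.52% had construct arrays all higher and 7.83% all lower. Ccl2 is lowest in the CD mutant, and Slc5a11, Acta1 and Fgb are highest in the ED mutant.

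The largest change was the fall of Ccl2, the gene for a chemokine that recruits monocytes. Ccl2 read 8.88 and 8.84 with empty vector, 7.50 and 7.38 with wild-type BMPR2, 6.80 and 6.94 with the CD mutant, and 7.48 and 7.49 with the ED mutant. Every construct array stood more than 1 log2 unit below the empty vector pair, and the CD mutant was lowest. The pooled fall was 1.59, with a 95% interval of -1.76 to -1.43, or 3.02-fold (SE 0.0741, adjusted p = 3.34e-05). Ccl2 passed when any 1 array was left out, with adjusted p at most 0.00320. The constructs differed among themselves (F-test adjusted p = 0.0322), at -1.42 for wild type, -1.99 for the CD mutant and -1.37 for the ED mutant.

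Ccl20, whose product attracts lymphocytes and dendritic cells through CCR6, fell by 0.68 (SE 0.0741, adjusted p = 0.00753), but not evenly. Ccl20 read 8.16 and 8.10 with empty vector, 7.38 and 7.25 with wild-type BMPR2, 7.01 and 7.07 with the CD mutant, and 7.95 and 8.05 with the ED mutant. The ED mutant pair lay just under empty vector while the wild-type and CD mutant arrays were well below it. The difference was -0.82 for wild type, -1.10 for the CD mutant and -0.13 for the ED mutant (F-test adjusted p = 0.00592), so the pooled value averages unlike constructs. Of 29 tested chemokine, cytokine and NF-kB genes, Ccl2 and Ccl20 were the 2 that fell and 0 rose, and the median was -0.017. Over all tested genes 0.312% were called lower and 0.413% higher. Nfkbia, the NF-kB inhibitor, stood at -0.31 (adjusted p = 0.146), and Sod2, the mitochondrial superoxide dismutase, at 0.23 (adjusted p = 0.167).

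In the interferon list, 2 of 20 tested genes rose and 0 fell, with a median of 0.056, where 0.413% and 0.312% of all tested genes did. Parp12 read 6.12 and 6.17 with empty vector, 6.46 and 6.63 with wild-type BMPR2, 6.87 and 7.03 with the CD mutant, and 7.19 and 7.29 with the ED mutant. Parp12, a mono-ADP-ribosyltransferase, was higher on every construct array and highest with the ED mutant, and its pooled rise was 0.77 (SE 0.0811, 1.7-fold, adjusted p = 0.00753). Psmb9, a subunit of the immunoproteasome, rose by 0.47 (adjusted p = 0.0475), a call lost whichever array was left out. Classical members gave values near 0: Ifit1 -0.01, Isg15 -0.07, Stat2 0.05 and Oas1a -0.03. Irf1, a transcription factor of this response, differed by 0.30 (adjusted p = 0.109), its ED mutant value being 0.71 and those of wild type and the CD mutant 0.12 and 0.07.

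Transporters of the renal tubule were among the largest changes, in both directions. Slc5a11 encodes a sodium-coupled inositol transporter. Slc5a11 read 6.03 and 6.39 with empty vector, 7.27 and 7.22 with wild-type BMPR2, 7.10 and 7.48 with the CD mutant, and 8.27 and 8.44 with the ED mutant. The constructs stood about 1 log2 unit above empty vector with wild type and the CD mutant and further above with the ED mutant. The pooled rise was 1.42 (95% interval 1.15 to 1.69, SE 0.12, 2.67-fold, adjusted p = 0.00441). The F-test among constructs gave an adjusted p of 0.0172. Without empty vector replicate 1 the adjusted p of the pooled rise was 0.0659.

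Slc17a1, a sodium-phosphate and urate transporter, went down. Slc17a1 read 6.84 and 6.62 with empty vector, 6.01 and 5.92 with wild-type BMPR2, 5.90 and 5.88 with the CD mutant, and 5.98 and 5.95 with the ED mutant. All 6 construct arrays lay in a narrow band below the empty vector pair, and the 3 constructs had like values, at -0.76, -0.84 and -0.77. The pooled fall was 0.79 (SE 0.0788, 1.73-fold, adjusted p = 0.00753, and 0.145 without empty vector replicate 1). Aqp1, the water channel, rose by 0.80 (adjusted p = 0.0186), from 7.39 to 7.54 with empty vector and 7.85 to 8.98 over the 6 construct arrays, the ED mutant pair being highest, and without the ED mutant group it stood 0.54 higher (adjusted p = 0.0669). Of 21 tested genes of the kidney tubule list 2 rose and 1 fell, with a median of 0.025, against 0.413% and 0.312% called among all tested genes. Cdh16, kidney cadherin, stood at -0.38 (adjusted p = 0.0767), and Pax2, a renal transcription factor read at 10.38 in empty vector cells, at -0.01.

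Fgb, the fibrinogen beta chain, rose from about the filter level. Fgb read 4.88 and 4.98 with empty vector, 6.03 and 5.63 with wild-type BMPR2, 5.47 and 5.58 with the CD mutant, and 6.51 and 6.48 with the ED mutant. The construct arrays were all higher, the ED mutant pair most. The pooled rise was 1.02 (SE 0.103, 2.03-fold, adjusted p = 0.00753), its empty vector signal lying at the filter level, where folds are understated, and without empty vector replicate 1 the adjusted p was 0.160. Without the ED mutant group Fgb stood 0.75 higher (adjusted p = 0.0662). Hpx, the haem-binding hemopexin, rose by 0.63 (adjusted p = 0.0371), standing 1.37 higher in the ED mutant and 0.35 and 0.19 higher in wild type and the CD mutant. Without the ED mutant group its value was 0.27 (adjusted p = 0.263). Rbp4, the retinol carrier, fell by 0.51 (adjusted p = 0.0443), with -0.76 in the ED mutant against -0.24 and -0.53 in wild type and the CD mutant. The Rbp4 call was lost whichever array was left out. Fgb, Hpx and Rbp4 were the 2 rises and 1 fall among 13 tested plasma protein and acute phase genes, whose median was 0.074. Among all tested genes 0.413% were called higher and 0.312% lower.

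Acta1, the skeletal muscle actin, was the largest change among muscle genes. Acta1 read 6.42 and 5.99 with empty vector, 7.23 and 6.80 with wild-type BMPR2, 6.99 and 7.10 with the CD mutant, and 8.39 and 8.38 with the ED mutant. No construct array reached down to the empty vector pair, and the ED mutant pair stood more than 1 log2 unit above the other constructs. The pooled rise was 1.28 (95% interval 0.98 to 1.57, SE 0.131, 2.42-fold, adjusted p = 0.00753), and the F-test among constructs had an adjusted p of 0.00941. Acta1 and Ccl2 were the 2 of 106 probe sets called whichever single array was left out, but without the ED mutant group Acta1 stood 0.82 higher with no call (adjusted p = 0.103), and with 6 arrays against 2 its adjusted p was 0.186. Ccl2 kept its call in both, at adjusted p of 0.000269 and 0.00412. Since the Acta1 promoter is a textbook target of serum response factor, its 250 bases before the annotated start site are shown from RefSeq (GRCr8, chr19:68784195-68784444, minus strand), with the match to the CArG box, the site of that factor, in capitals.
Acta1: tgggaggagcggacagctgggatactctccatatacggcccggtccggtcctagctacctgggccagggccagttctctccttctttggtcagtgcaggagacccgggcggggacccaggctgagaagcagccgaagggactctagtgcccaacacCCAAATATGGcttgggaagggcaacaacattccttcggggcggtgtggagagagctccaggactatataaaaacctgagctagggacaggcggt

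The match begins 94 bases before the start site. Windows from 250 bases before to 50 after the start were held for 43 of the 52 genes called higher and 38 of the 41 called lower. On either strand the CArG box occurred in 2 of the 43, Acta1 and Hpx (4.65%), in 0 of the 38, in 1.38% of 9075 tested genes and in 1.64% of all 27457 promoters. Motifs were chosen after the values were seen, so these shares are a description.

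Other genes of striated muscle gave 0 further calls. Of 15 tested genes of skeletal and cardiac muscle it was the 1 that changed, with a list median of 0.018. Tnnc1, a troponin subunit, stood at -0.40 (adjusted p = 0.108) and Myh1, a fast myosin, at -0.13. Among 22 smooth muscle contractile genes 1 fell and 0 rose, the median being 0.04. This was Tpm1, the actin-binding tropomyosin 1, at 12.08 to 12.15 with empty vector and 11.40 to 11.89 over the 6 construct arrays, which fell by 0.49 (adjusted p = 0.0406), while its 4 other tested probe sets differed by -0.43 to 0.13 without passing. Tpm4 stood at -0.37 (adjusted p = 0.0895), Flna, filamin A, at -0.27, and Mylk, myosin light chain kinase, at 0.24. Acta2 differed by 0.08 and Tagln by 0.06. Crip1, a LIM domain protein, rose by 0.79 (adjusted p = 0.0186), with 1.35 in the ED mutant against 0.47 and 0.55 in wild type and the CD mutant. Without the ED mutant group Crip1 stood 0.51 higher (adjusted p = 0.149).

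Mt2A, a metallothionein that binds zinc and copper, rose in the pooled comparison, with like values in the 3 constructs. Mt2A read 9.39 and 9.09 with empty vector, 10.02 and 10.02 with wild-type BMPR2, 10.11 and 10.13 with the CD mutant, and 10.26 and 10.08 with the ED mutant. Every construct array stood above both empty vector arrays. The constructs were 0.78, 0.88 and 0.93 above empty vector (F-test adjusted p = 0.795), and the pooled rise was 0.86 (95% interval 0.65 to 1.07, SE 0.0926, 1.82-fold, adjusted p = 0.00753, and 0.0541 without empty vector replicate 2). It was the 1 of 11 tested metallothionein and zinc genes to change. Its promoter is shown because metallothionein genes are known for clustered metal response elements, here in the 250 bases before the start (GRCr8, chr19:10838709-10838958, minus strand), with matches to TGCACNC or TGCGCNC on either strand in capitals.
Mt2A: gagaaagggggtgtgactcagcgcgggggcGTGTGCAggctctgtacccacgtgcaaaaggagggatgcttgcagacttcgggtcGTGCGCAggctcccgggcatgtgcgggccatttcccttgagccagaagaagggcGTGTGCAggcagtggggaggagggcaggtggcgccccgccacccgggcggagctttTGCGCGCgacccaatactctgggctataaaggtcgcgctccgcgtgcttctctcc

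The window held 4 such matches. These short motifs are common: TGCGCNC occurred in 32.6% of promoters of genes called higher, 47.4% of those called lower and 26.7% of tested genes, and TGCACNC in 11.6%, 10.5% and 13.2%. Over all promoters the shares were 15% and 12.2%.

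The glutathione transferase genes Gstm2 and Gstm1 were called higher. Gstm2 read 7.20 and 7.15 with empty vector, 7.93 and 7.99 with wild type, 7.77 and 8.19 with the CD mutant, and 8.09 and 8.07 with the ED mutant, without overlap, and rose by 0.83 (SE 0.104, 1.78-fold, adjusted p = 0.0134). Gstm1 rose by 0.54 (adjusted p = 0.0369), a call lost whichever array was left out. Probe sets of such close paralogs may cross-hybridise, so the pair may not be separate measurements. Gstm1 was the 1 of 17 tested NRF2 antioxidant genes that changed, and the list's median was 0.05.

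Genes linked to low oxygen and to mitophagy gave calls upward, in cells that were all labelled normoxic. Depp1 read 6.53 and 6.41 with empty vector, 7.10 and 7.16 with wild-type BMPR2, 7.16 and 7.13 with the CD mutant, and 7.28 and 7.26 with the ED mutant. Depp1, an autophagy regulator induced by FOXO factors, was higher on every construct array, with the constructs close together, and rose by 0.71 (SE 0.0708, 1.64-fold, adjusted p = 0.00753, and 0.0888 and 0.0541 without empty vector replicate 1 and 2). Bnip3 read 6.25 and 6.22 with empty vector, 6.69 and 6.89 with wild-type BMPR2, 6.86 and 6.74 with the CD mutant, and 6.79 and 6.74 with the ED mutant. Bnip3, a mitophagy receptor, likewise had no overlap and rose by 0.55 (adjusted p = 0.0238). Its relative Bnip3l, outside the list, rose by 0.57 (adjusted p = 0.0186), and a dimmer probe set of that gene stood 0.43 higher (adjusted p = 0.110).

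Of 25 tested genes in the hypoxia and glycolysis list, 2 rose and 0 fell, against 0.413% and 0.312% of all tested genes, and the median was 0.116. Construct arrays lay wholly above empty vector for 10 of the 25 and wholly below for 0, against 6.61% and 9.31% of tested genes. The others of the 10 were Ndrg1 at 0.48 (adjusted p = 0.0536), Pfkl, liver phosphofructokinase, at 0.37 (adjusted p = 0.0642), and Vegfa, the angiogenic growth factor, at 0.31 (adjusted p = 0.127), with Ankrd37, Pfkp, Hk1, Aldoa and Pgk1 at 0.12 to 0.28. Ldha, Slc2a1 and Pdk1, classical HIF targets, differed by -0.01, 0.03 and -0.03 with overlapping arrays. Foxo3, the transcription factor, rose by 0.42 (adjusted p = 0.0429), by the brighter of its probe sets, a call lost whichever array was left out. The dimmer Foxo3 probe set gave -0.0004 without passing.

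**Figure D3:**
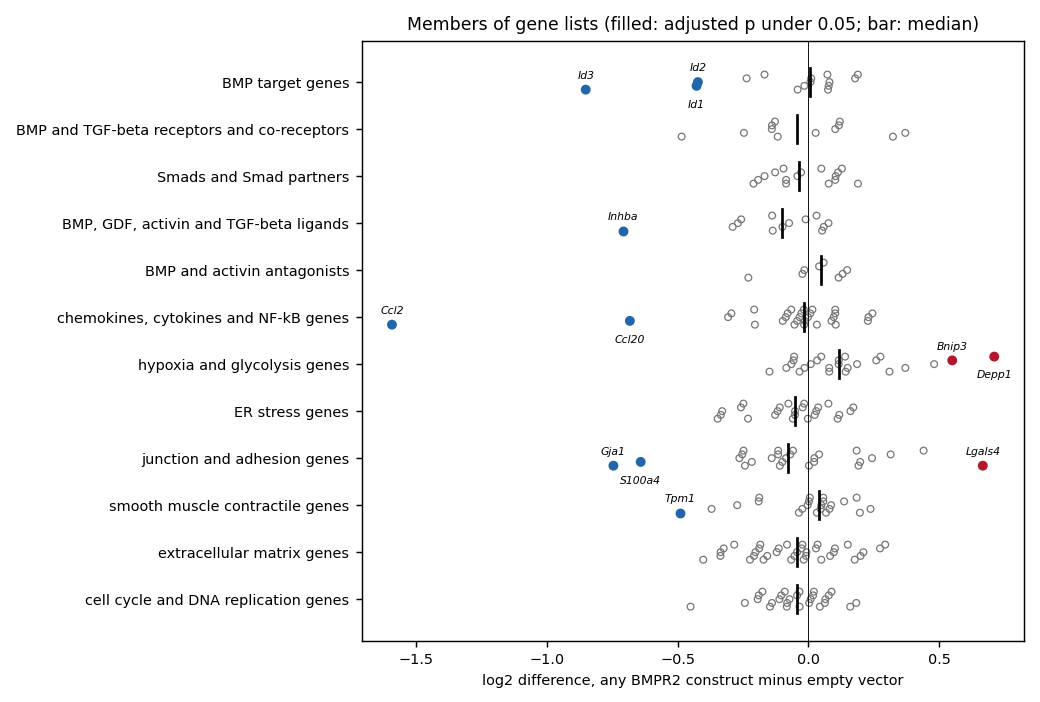
Log2 differences of the pooled constructs from empty vector for the tested members of 12 gene lists, 1 probe set per gene; filled points passed an adjusted p of 0.05 in limma, open points did not, and bars are medians. The Id genes and Ccl2 lie at the left of lists whose medians are near 0, and the hypoxia and glycolysis list has the median of 0.116.

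Genes of cell contact changed in both directions. Gja1 read 6.40 and 6.20 with empty vector, 5.68 and 5.59 with wild-type BMPR2, 5.74 and 5.78 with the CD mutant, and 5.33 and 5.22 with the ED mutant. Gja1, which encodes connexin 43, was lower on all construct arrays, most with the ED mutant, and fell by 0.75 (SE 0.0796, 1.68-fold, adjusted p = 0.00753, and 0.160 without empty vector replicate 1). A second, dimmer Gja1 probe set differed by 0.11 the other way (adjusted p = 0.679). S100a4, a calcium-binding protein of motile cells, read 8.68 and 8.50 with empty vector, 8.13 and 8.07 with wild type, 8.10 and 8.11 with the CD mutant, and 7.63 and 7.65 with the ED mutant, and fell by 0.64 (adjusted p = 0.00983). Lgals4, a galectin of epithelia, rose by 0.67 (adjusted p = 0.00753), chiefly in the ED mutant, at 1.29 against 0.44 and 0.27, and without the ED mutant group it stood 0.35 higher (adjusted p = 0.143). Of 26 tested junction and adhesion genes 1 rose and 2 fell, against 0.413% and 0.312% of all tested genes, with a median of -0.077. Construct arrays were all higher for 3 of the 26 and all lower for 7, against 6.61% and 9.31% of tested genes.

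E-cadherin's gene moved with the constructs. Cdh1 read 9.22 and 9.26 with empty vector, 9.65 and 9.70 with wild-type BMPR2, 9.53 and 9.80 with the CD mutant, and 10.27 and 10.23 with the ED mutant. Cdh1 was higher on each construct array and highest with the ED mutant, and rose by 0.62 (SE 0.0835, adjusted p = 0.0186); without the ED mutant group it stood 0.43 higher (adjusted p = 0.144). It was the 1 of 20 tested epithelial genes that changed, the list's median being -0.006. The mean of the 8 epithelial markers was 7.17 to 7.21 on empty vector arrays and 7.14 to 7.44 on construct arrays, and its part in the other results was not tested. Caveolin genes, which encode membrane scaffold proteins, stood lower without passing, Cav1 at -0.64 (adjusted p = 0.0675) and Cav2 at -0.66 (adjusted p = 0.103). Of 35 matrix genes and 22 vasoactive genes 0 passed in limma, with 10 and 3 at an unadjusted p under 0.05, and the matrix median was -0.043. Over all 10904 tested genes, 689 were higher and 926 lower at that unadjusted level.

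Plaur, the urokinase receptor that focuses plasmin at the cell surface, was lower with every construct. Plaur read 9.99 and 9.87 with empty vector, 9.43 and 9.25 with wild-type BMPR2, 9.21 and 9.26 with the CD mutant, and 9.51 and 9.54 with the ED mutant. Its construct arrays were all lower, by 0.56 pooled (SE 0.077, 1.48-fold, adjusted p = 0.0186). Plaur and Gja1 were among 7 of 38 genes called lower whose promoter window held TGACTCA, the AP-1 site, on either strand (18.4%), against 3 of 43 called higher (6.98%), 3.71% of tested genes and 4.53% of all promoters. The other 5 were Perp, Rbp4, Hnrnpa1, Me1 and Idi1. Both promoters are shown over the 250 bases before the start with the match in capitals, from GRCr8 at chr1:89181113-89181362, plus strand, for Plaur and at chr20:36302314-36302563, plus strand, for Gja1, where the match is on the reverse strand.
Plaur: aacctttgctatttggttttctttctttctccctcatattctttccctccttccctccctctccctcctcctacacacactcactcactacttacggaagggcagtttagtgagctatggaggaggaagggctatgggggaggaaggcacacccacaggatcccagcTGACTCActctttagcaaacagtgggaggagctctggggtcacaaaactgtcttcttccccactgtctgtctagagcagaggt
Gja1: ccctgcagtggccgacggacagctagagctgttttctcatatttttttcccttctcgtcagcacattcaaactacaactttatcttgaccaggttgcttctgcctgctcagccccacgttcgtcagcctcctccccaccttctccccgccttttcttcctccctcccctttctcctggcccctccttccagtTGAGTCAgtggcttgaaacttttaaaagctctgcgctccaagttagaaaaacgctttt

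Of AP-1 subunits themselves, Fosl1 stood at -0.54 (adjusted p = 0.0885), Junb at -0.24 and Fos at 0.40 (adjusted p = 0.121). In the immediate early list 0 of 25 passed in limma, and 8 had an unadjusted p under 0.05, where 689 of all 10904 genes were higher and 926 lower. Other motifs searched on both strands gave shares in genes called higher, genes called lower and tested genes of 18.6%, 10.5% and 21.0% for GGCGCC, 27.9%, 28.9% and 24.9% for ACGTG, and 55.8%, 71.1% and 66.3% for a loose NF-kB site, GGG and CC with 5 bases of any kind between. Over all promoters the shares were 11.8%, 19.7% and 48.5%. The motif GGCGCC is a BMP-Smad core site and ACGTG the core of the hypoxia factor's site.

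Growth arrest genes gave 2 falls among 19 tested, where 0.312% of all tested genes were called lower. Perp, a desmosomal p53 target, fell by 0.53 (adjusted p = 0.0323), though a dimmer probe set of it differed by 0.09 upward. Gadd45g, a growth arrest gene, fell by 0.47 (adjusted p = 0.0451), from 9.73 to 9.90 with empty vector and 9.19 to 9.53 over the 6 construct arrays. The Gadd45g call was lost whichever array was left out. Of 27 cell cycle and replication genes 0 passed in limma (5 at an unadjusted p under 0.05), with Ccnb1, cyclin B1, nearest at -0.45 (adjusted p = 0.0635). Of 24 endoplasmic reticulum stress genes 0 passed in limma (6 at an unadjusted p under 0.05, all lower). The nearest was Manf, a secreted stress factor, at -0.35 (adjusted p = 0.0709). Construct arrays were all lower for 6 of the 24 and all higher for 1, against 9.31% and 6.61% of tested genes. Over all 10904 tested genes, 926 were lower and 689 higher at an unadjusted p under 0.05 in limma. Idi1, an isomerase of isoprenoid synthesis, fell by 0.54 (adjusted p = 0.0374) as the 1 of 19 cholesterol genes that changed. Ribosomal protein, oxidative phosphorylation and lysosomal protease lists gave 0 calls among 16, 21 and 15 genes in limma, with 0, 3 and 4 at an unadjusted p under 0.05. Markers of endothelium and of leukocytes gave 0 calls among 2 and 5 tested in limma (0 and 2 at an unadjusted p under 0.05), and of 7 fibroblast markers S100a4, also in the adhesion list, was the 1 that changed.

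The remaining largest rises were of genes of no single list. Arhgap5 read 7.56 and 7.78 with empty vector, 8.65 and 8.53 with wild type, 8.60 and 8.38 with the CD mutant, and 8.38 and 8.21 with the ED mutant, and rose by 0.79 (adjusted p = 0.0109). Wasf2, which drives actin branching, rose by 0.74 (adjusted p = 0.0449) from widely spaced empty vector values of 6.59 and 7.06. Its call was lost when empty vector replicate 1 or any construct array was left out. Mia2, which helps export large cargo from the endoplasmic reticulum, rose by 0.67 (adjusted p = 0.00983) from a mean just under the filter level. Ypel2 rose by 0.68 (adjusted p = 0.00983). App, the amyloid precursor gene, read 9.59 to 9.75 with empty vector and 10.13 to 10.50 over the 6 construct arrays, and rose by 0.64 (adjusted p = 0.00983), while its brightest probe set stood 0.32 higher without passing (adjusted p = 0.109). For Fam98a and Papola, the poly(A) polymerase, called probe sets rose by 0.78 and 0.68, but the brighter probe set of each gave -0.02 and 0.10 without passing.

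Further falls included Greb1l by 0.68 (adjusted p = 0.0103), Hspb8, a small heat shock protein, by 0.62 (adjusted p = 0.0266), and Gpr137b, a lysosomal membrane protein, by 0.61 (adjusted p = 0.0201). A brighter Hspb8 probe set stood at -0.36 (adjusted p = 0.0786). For Gpr137b another probe set of like brightness gave -0.06 without passing (adjusted p = 0.794). Mrps2, a mitochondrial ribosomal protein, fell by 0.57, Pabpn1, a nuclear poly(A)-binding protein, by 0.55, Mysm1, a histone H2A deubiquitinase, by 0.55, and Tmed2, a cargo receptor of the early secretory pathway, by 0.54 (adjusted p from 0.027 to 0.0374). The Pabpn1 and Mysm1 calls were lost whichever array was left out. For Pabpn1 the called probe set was the dimmest of 3, and the brighter ones gave -0.04 (adjusted p = 0.878) and -0.18 (adjusted p = 0.285). A dimmer Tmed2 probe set gave -0.12 (adjusted p = 0.508). The other tested Mrps2 probe sets gave -0.14 (adjusted p = 0.497) and -0.13 (adjusted p = 0.668). RNA-binding genes among the called falls included Hnrnpa1 by 0.51 and Tardbp by 0.51, each by a dimmer probe set while the brightest of that gene gave 0.07 and -0.26 without passing. Dnmt1, the maintenance DNA methyltransferase, fell by 0.40 (adjusted p = 0.0443), with -0.70 in the ED mutant against -0.26 and -0.23 in wild type and the CD mutant. Without the ED mutant group Dnmt1 stood at -0.25 (adjusted p = 0.231), and its call was lost whichever array was left out. Of 40 called genes with several tested probe sets, Rfx7 was the 1 with 2 called, and 29 had all probe sets of 1 sign.

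For part of the called genes the 3 constructs differed from one another. The 3 comparisons with empty vector use the same 2 control arrays, so their values are given side by side and not as separate support. Wild type alone gave 3 calls in limma (0.0154%), 1 higher (0.00512%) and 2 lower (0.0102%), which were Mia2 on the higher side and Ccl2 and Ccl20 on the lower. The CD mutant gave 43 (0.220%), 27 higher (0.138%) and 16 lower (0.0819%). The ED mutant gave 320 (1.64%), 181 higher (0.927%) and 139 lower (0.712%). The F-test among the constructs, which does not use empty vector in its contrasts, called 86 probe sets (0.440%), and 14 of these were among the 106. They were Adprm, Lgals4, Sgk1, Ccl20, Fxyd3, Hpx, Acta1, Slc5a11, Nrep, Fgb, Ccl2, Crip1, Aqp1 and Parp12. In Adprm and Nrep the construct arrays overlapped empty vector, since the ED mutant stood at -0.15 and -0.02 while wild type and the CD mutant stood at 0.55 and 0.98, and at -0.69 and -0.96.

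**Figure D4:**
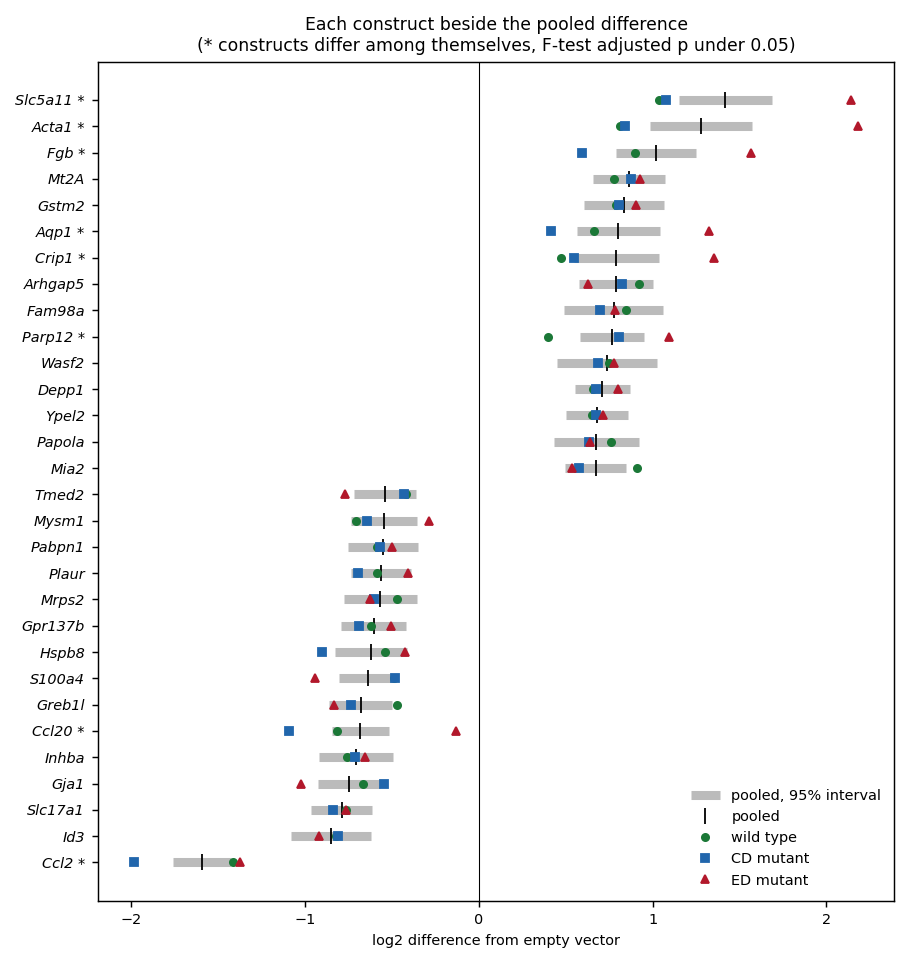
Log2 differences from empty vector of the 15 largest rises and 15 largest falls, for wild type (circles), the CD mutant (squares) and the ED mutant (triangles), with the pooled value (ticks) and its 95% interval (bars); an asterisk marks an adjusted p under 0.05 in the F-test among constructs. Symbols of Mt2A, Slc17a1, Id3 and Depp1 lie close together, while the ED mutant lies far out for Slc5a11, Acta1 and Fgb and near 0 for Ccl20.

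Genes on which constructs took opposite sides of empty vector have a pooled value that stands for none of them. Ctsh, a lysosomal cysteine protease, read 8.0 and 8.05 with empty vector, 7.41 and 7.46 with wild type, 7.16 and 7.39 with the CD mutant, and 8.52 and 8.35 with the ED mutant. Its pooled value of -0.32 (adjusted p = 0.128) combined -0.60 and -0.76 with 0.41 (F-test adjusted p = 0.00452). Flrt3, a cell adhesion protein, stood at 0.34, -0.17 and 1.16 for wild type, CD and ED mutant (F-test adjusted p = 0.00404), and Myh3, embryonic myosin, at 0.27, 0.76 and -0.26 (F-test adjusted p = 0.0118). None of the 3 passed the pooled test.

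Control transcripts moved with the groups in part. The poly-A controls, spiked in before labelling, averaged 7.76 to 8.02 on empty vector arrays and 7.49 to 8.62 on construct arrays, a pooled difference of 0.363, with wild type replicate 1 lowest of all. The 5S ribosomal RNA probe read 6.83 to 6.86 with empty vector and 6.49 to 6.65 with a construct, and its part in the results was not tested. The 3' minus 5' difference of the GAPDH control was 0.412 to 0.413 and 0.365 to 0.433, and the hybridization controls differed by 0.05. With the poly-A mean as a covariate, an alternative chosen after seeing the data, 15 probe sets were called, 11 of them among the 106, including Ccl2 (adjusted p = 0.00108), Fgb (adjusted p = 0.00525), Slc5a11 (adjusted p = 0.0304), Acta1 (adjusted p = 0.0394) and Slc17a1 (adjusted p = 0.0499). Id3 (adjusted p = 0.0919), Mt2A (adjusted p = 0.0554), Gja1 (adjusted p = 0.0554) and Depp1 (adjusted p = 0.0549) were not, with values of -0.76, 0.83, -0.73 and 0.67.

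The number of calls rested heavily on single arrays. It was 3 without empty vector replicate 1, 24 without empty vector replicate 2, 48 and 23 without wild type replicate 1 and 2, 27 and 50 without CD mutant replicate 1 and 2, and 45 and 41 without ED mutant replicate 1 and 2. Of the 106, 41 were called in none of these 8 fits. Without the ED mutant group 31 were called, against 68 without wild type and 71 without the CD mutant. When each group mean counted as 1 sample, 3 constructs against 1 empty vector, limma called 0, with 1568 at an unadjusted p under 0.05.

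**Figure D5:**
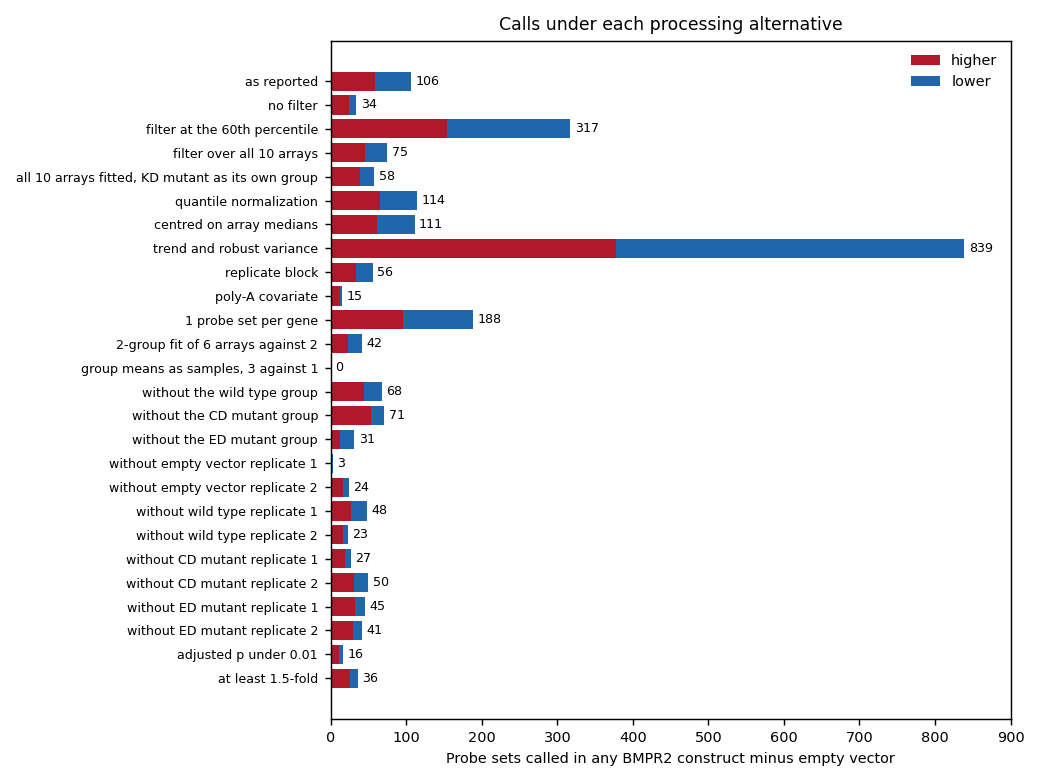
Number of probe sets called in the pooled comparison (x axis; red higher, blue lower, totals printed) as reported and under each alternative (y axis). The total of 106 runs from 0, with group means as samples, to 839, with an intensity trend and robust variance, and is 3 without empty vector replicate 1.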

How the data were processed

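Per the labels' protocols, total RNA of cells labelled A7r5 was extracted with Qiagen RNeasy, given a biotin label and read on 1-colour Affymetrix arrays for rat. The deposited table holds log2 values of 31099 probe sets that were, per the submitters' processing notes, made with RMA, whose version is not given in the sources used here. No scanner intensities or detection calls were used, so the number of arrays limits the precision, and signals near the filter level understate differences.

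The 57 Affymetrix controls were left out of the tests. Platform annotation gave 1 gene for 20826 probe sets, several for 436 and none for 9780; 20758 symbols were brought up to date by Entrez identifier from the GRCr8 table of RefSeq genes. Fits to the 8 arrays used limma 3.58.1 under R 4.3.3 (4 group means, contrasts, eBayes, 4 residual and 9.68 total degrees of freedom). The F-test covered CD mutant and ED mutant minus wild type. Adjusted p-values are Benjamini-Hochberg values over the 19534 probe sets, from two-sided tests except for the F-test. Alternatives that change the tested set were adjusted over their own probe sets. SE is the moderated standard error. Lists, 30 in number, used the brightest probe set of each gene, and were described by counts and medians. The fit was tested on simulated data.

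Named genes were the rat Bmpr2 probe sets, the 15 largest non-overlapping named rises and falls among calls, and up to 4 members of each list with the lowest adjusted p. Other called genes, list members and genes with overlapping or opposing constructs (such as App, Foxo3, Dnmt1, Bnip3l, Adprm and Hnrnpa1) and all motifs were chosen after their values were seen. Members and lists were chosen with earlier results of these data known. Alternatives changed the filter, normalization, variance model, block, threshold, arrays and unit of analysis.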

Additional observations from a re-analysis of the deposited data

Results flagged for a closer look

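For 17 genes chosen by the naming rule, the 3 constructs differed from each other by the F-test of limma, so their pooled value stands beside a spread among constructs. Among the pooled calls the adjusted p of this test was 0.00404 for Lgals4, 0.00592 for Ccl20, 0.00766 for Hpx, 0.00942 for Acta1, 0.0172 for Slc5a11, 0.0256 for Fgb, 0.0322 for Ccl2, 0.0367 for Crip1, 0.0394 for Aqp1 and 0.0431 for Parp12. Among genes not called in the pooled comparison it was 0.00404 for Flrt3, 0.00452 for Ctsh, 0.00708 for Klf4, 0.00942 for Ccdc80, 0.0118 for Myh3, 0.0157 for Krt19 and 0.0291 for Irf1. Of other genes the report names, Adprm (0.00404), Sgk1 (0.00511), Fxyd3 (0.00708) and Nrep (0.0206), all pooled calls, and Clu (0.0182), not called, also had an adjusted p under 0.05 in this test. Klf4, a Krüppel-like transcription factor, stood at 0.10, 0.02 and 0.84 from empty vector in wild type, the CD mutant and the ED mutant, and Ccdc80, a matrix protein, at -0.09, -0.09 and -0.83. Krt19, a keratin, stood at -0.25, -0.43 and 0.29.

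For Mrps2 the wild type replicate 1 array, at 7.71, lay apart from the other construct arrays, at 7.39 to 7.45, with a gap of 0.812 of the whole range. This was 1 of 34 groups of construct arrays examined, and chance gives about 1 in 20. The poly-A control transcripts, outside the genes compared, stood 0.363 higher on the construct arrays than with empty vector.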

How the results depend on the processing

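With 2 arrays a group, the alternatives moved counts far. No named gene called in the pooled comparison changed sign under any alternative run, but this does not test direction. Changes of filter, variance model, block or threshold leave the difference itself as it was. The other alternatives share most of their arrays with the main fit, and the genes were called for their difference. Pooled calls, 106 as reported, were 34 with no filter, 317 with a filter at the 60th percentile, 58 with all 10 arrays fitted, 839 with trend and robust variance, 15 with the poly-A covariate, 188 with 1 probe set per gene fitted and adjusted alone, 42 with 6 arrays against 2, 0 with group means as samples (1568 at an unadjusted p under 0.05 in limma), 68 without wild type, 31 without the ED mutant, 16 at an adjusted p under 0.01, 36 at 1.5-fold and 3 to 50 without each array in turn. Differences among constructs, 86 as reported, were 52 with no filter, 167 at the 60th percentile, 55 with all 10 arrays, 558 with trend and robust variance, 38 with the poly-A covariate, 21 at 0.01 and 0 (1667 at an unadjusted p under 0.05, without ED mutant replicate 1) to 47 without each array. Wild type, 3 as reported, gave 1 with no filter, 19 at the 60th percentile, 196 with trend and robust variance, 14 per gene, 1 without the CD or the ED mutant group, 1 at 0.01 and 1 to 2 without each array. The CD mutant, 43, gave 8, 125, 538, 1 with the poly-A covariate, 69 per gene, 13 without the wild type or the ED mutant group, 3 at 0.01 and 1 to 13 without each array. The ED mutant, 320, gave 127, 664 and 1092 likewise, 158 with all 10 arrays, 46 with the poly-A covariate, 154 without wild type, 53 at 0.01, 148 at 1.5-fold and 37 to 243 without each array.

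A filter over all 10 arrays (75), quantile normalization (114), centring (111) and leaving out the CD mutant group (71) kept the pooled count within 1.5 times. Replicate numbers share only a number: correlations of the replicate deviations ran from -0.036 to 0.157. With a replicate block the counts were 56 pooled, 50 among constructs, 1 for wild type, 12 for the CD mutant and 211 for the ED mutant. Where a value changed side, the cause was not tested, apart from fewer arrays or features tested.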

Other observations

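Several called genes lie outside the lists, and no theme among them was tested. Sgk1, a kinase that regulates sodium transport, rose by 0.45 (adjusted p = 0.0369 in limma), with 1.04 in the ED mutant against 0.25 and 0.07 in wild type and the CD mutant. Fxyd3, a regulator of the sodium pump, rose by 0.42 (adjusted p = 0.0435), with 0.94 against 0.15 and 0.17. Slc4a7, a sodium bicarbonate cotransporter, read 8.47 to 8.73 with empty vector and 9.12 to 9.32 over the 6 construct arrays, and rose by 0.65 (adjusted p = 0.0186). Clcn3, a chloride-proton exchanger, rose by 0.50 (adjusted p = 0.0328), while its brightest probe set stood 0.38 higher without passing (adjusted p = 0.0676), and Slc22a18 rose by 0.65 (adjusted p = 0.0186). All 5 were higher on every construct array than on both empty vector arrays, as were 6.52% of all tested probe sets. The 5 were chosen after their values were seen. For Sgk1 the lowest construct array read 10.43 and the highest empty vector array 10.42. Its call was lost whichever array was left out, and without the ED mutant group it stood 0.16 higher (adjusted p = 0.42).

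Further calls outside the lists follow. Dhrs3, a retinal reductase, rose by 0.60 (adjusted p = 0.0328), Hsd17b8, an enzyme of steroid and fatty acid metabolism, by 0.49 (adjusted p = 0.0218), and Igf2r, which clears IGF2 and sorts lysosomal enzymes, by 0.56 (adjusted p = 0.0443). Bdnf, a neurotrophin, fell by 0.49 (adjusted p = 0.0293) by 1 of its 2 tested probe sets, and the other, dimmer one had an adjusted p of 0.999. Araf, a RAF kinase, fell by 0.52 (adjusted p = 0.0451) by its brighter probe set, and the dimmer gave -0.08 (adjusted p = 0.782). Me1, the cytosolic malic enzyme, fell by 0.43 (adjusted p = 0.0405), a call lost whichever array was left out. For Igf2r a dimmer probe set stood 0.16 higher without passing (adjusted p = 0.377). These genes were chosen after their values were seen.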
